A study of Mus musculus with 6 samples.

Results

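The genes described here are 10 markers of mural cells, the cells that wrap blood vessels, out of 32285 genes in the count table. They were taken by name. Of these, 5 belong to the contractile apparatus: *Acta2* (smooth muscle actin), *Tagln* (transgelin, an actin-binding protein), *Myh11* (smooth muscle myosin heavy chain), *Myl9* (a regulatory myosin light chain) and *Cnn1* (calponin, which binds actin and restrains contraction). The other 5 mark brain pericytes: *Rgs5* (a regulator of G-protein signalling), *Vtn* (vitronectin, a secreted matrix protein), *Pdgfrb* (the receptor for PDGF-B), *Notch3* (a Notch receptor) and *Higd1b* (a hypoxia-inducible domain family member). They were followed across all cell clusters, and mainly in PER_6, the cluster the study named pericytes, and LOW_21, a cluster it left without an identity because marker expression was low.

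Mural cells form a series along the vessel. Smooth muscle cells ring arteries and arterioles and carry the contractile proteins, whereas capillary pericytes carry little of them. Endothelial PDGF-B recruits mural cells through *Pdgfrb*, endothelial Notch ligands signal to mural *Notch3*, and the contractile genes are classical targets of serum response factor, which binds a DNA motif called the CArG box.

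The study followed astrocyte maturation. Striatal tissue without the subventricular zone was taken from wild-type male C57BL/6 mice at postnatal day 3 (P3) or at 3 months (3m). Brains of several mice were pooled in each preparation, and a red blood cell removal step was used. Cells were then captured on magnetic beads against ACSA2, an astrocyte surface antigen, so that mural cells were not the population sought. There were 3 libraries at each age, made with droplet chemistry that counts unique molecular identifiers (UMIs) at the 3′ end of transcripts.

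The libraries held 32193875 to 37795021 UMIs at P3 and 5471573 to 10522151 at 3m. Of 16690 barcodes, 14373 passed the study's filter (more than 500 genes and under 10% mitochondrial UMIs). 3m replicate 1 stood apart, with 836 of its 1653 barcodes at 10% or more. Only 37 of 16653 barcode sequences occurred in 2 or more libraries, at most 9 for a pair. PER_6 held 220, 170 and 238 cells in P3 replicates 1, 2 and 3 and 6, 4 and 6 cells in the 3m replicates. LOW_21 held 25, 22 and 21 cells in the 3m replicates and none at P3. The cells of these clusters were shallower at 3m, with medians of 4404 to 6858.5 UMIs in PER_6 at P3, 1975.5 to 3321.5 in PER_6 at 3m and 1614 to 2474 in LOW_21. Levels below are CPM, the UMIs of a gene scaled to a total of 1000000 UMIs in the cells named, which were summed per library. A UMI is counted once per transcript end, so that CPM needs no length correction, but capture still differs between genes.

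On the mm10 assembly (GRCm38), the contractile members are on chr19:34241090-34255590 (*Acta2*, minus strand), chr9:45929619-45936058 (*Tagln*, minus), chr16:14194535-14291372 (*Myh11*, minus), chr2:156775420-156781658 (*Myl9*, plus) and chr9:22099216-22109630 (*Cnn1*, plus). The pericyte members other than *Pdgfrb*, which is given later, are on chr1:169655501-169695813 (*Rgs5*, plus), chr11:78499091-78502324 (*Vtn*, plus), chr17:32120820-32166852 (*Notch3*, minus) and chr11:102835849-102838040 (*Higd1b*, plus). *Tagln* shares positions with *Pcsk7* and Gm48529 and *Notch3* with Gm17276, each on the opposite strand. Counts came from 3′ libraries through Cell Ranger, and reads from the opposite strand were not examined here. Over all barcodes the members gave 203512 of 128757268 UMIs, most of them from *Rgs5* (56253) and *Vtn* (48125), and fewest from *Myh11* (501) and *Cnn1* (34).

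Upstream sequence was read for 6 of the 10 members from RefSeq (GRCm38.p6), over the 250 bases before each start site. *Tagln*, *Myh11*, *Pdgfrb* and *Higd1b* had no entry. The stretches of *Acta2* and *Myl9* are shown because they were the only members of the 6 whose windows held CArG boxes, and *Rgs5* is shown as a pericyte gene without one. Each is written 5′ to 3′ on the gene's own strand, with matches in capitals. A match had at least 5 of its 6 core bases A or T. The motif reads as itself on the opposite strand, so each match counts for both strands.
Acta2, chr19:34255438-34255467: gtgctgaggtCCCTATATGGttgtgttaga
Acta2, chr19:34255388-34255417: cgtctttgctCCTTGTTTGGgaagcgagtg
Myl9, chr2:156775214-156775419: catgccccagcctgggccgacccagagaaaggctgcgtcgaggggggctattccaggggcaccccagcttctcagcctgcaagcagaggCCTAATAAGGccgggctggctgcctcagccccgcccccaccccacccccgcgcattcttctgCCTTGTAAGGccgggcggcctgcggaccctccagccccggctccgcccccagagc
Rgs5, chr1:169655251-169655500: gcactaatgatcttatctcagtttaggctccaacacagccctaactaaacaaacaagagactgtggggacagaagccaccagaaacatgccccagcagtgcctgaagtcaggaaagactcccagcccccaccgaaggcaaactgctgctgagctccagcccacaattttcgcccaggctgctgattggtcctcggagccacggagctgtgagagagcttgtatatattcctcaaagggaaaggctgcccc

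The 2 *Acta2* matches began 84 and 34 bases before the RefSeq start and had 5 of 6 core bases A or T; both lay inside an exon of the GENCODE M21 annotation, whose start is further upstream. The *Myl9* matches began 161 bases before the start, with all 6 core bases A or T, and 99 bases before it, with 5 of 6. *Cnn1*, *Rgs5*, *Vtn* and *Notch3* had no match in these windows. Of 32851 promoters of the same length, 8.59% held at least 1 such match, 0.670% held 2 or more and 1.47% held a match with all 6 core bases A or T.

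At P3, all 10 members were at their highest CPM in PER_6 among the 19 clusters with at least 5 P3 cells. At 3m, among the 10 clusters with at least 5 such cells, the genes parted. *Rgs5*, *Vtn*, *Pdgfrb* and *Higd1b* were highest in LOW_21, whereas all 5 contractile members and *Notch3* were highest in the 16 pooled cells of PER_6. For *Myl9* this rested on 3m replicate 1, with 6181, 1657 and 2010 CPM in PER_6 of 3m replicates 1, 2 and 3 against 2755, 2332 and 2224 in LOW_21, and *Notch3* was higher in LOW_21 in replicate 2. Clusters were formed on these same genes, so levels between clusters are given as a description with no test.

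**Figure D1:**
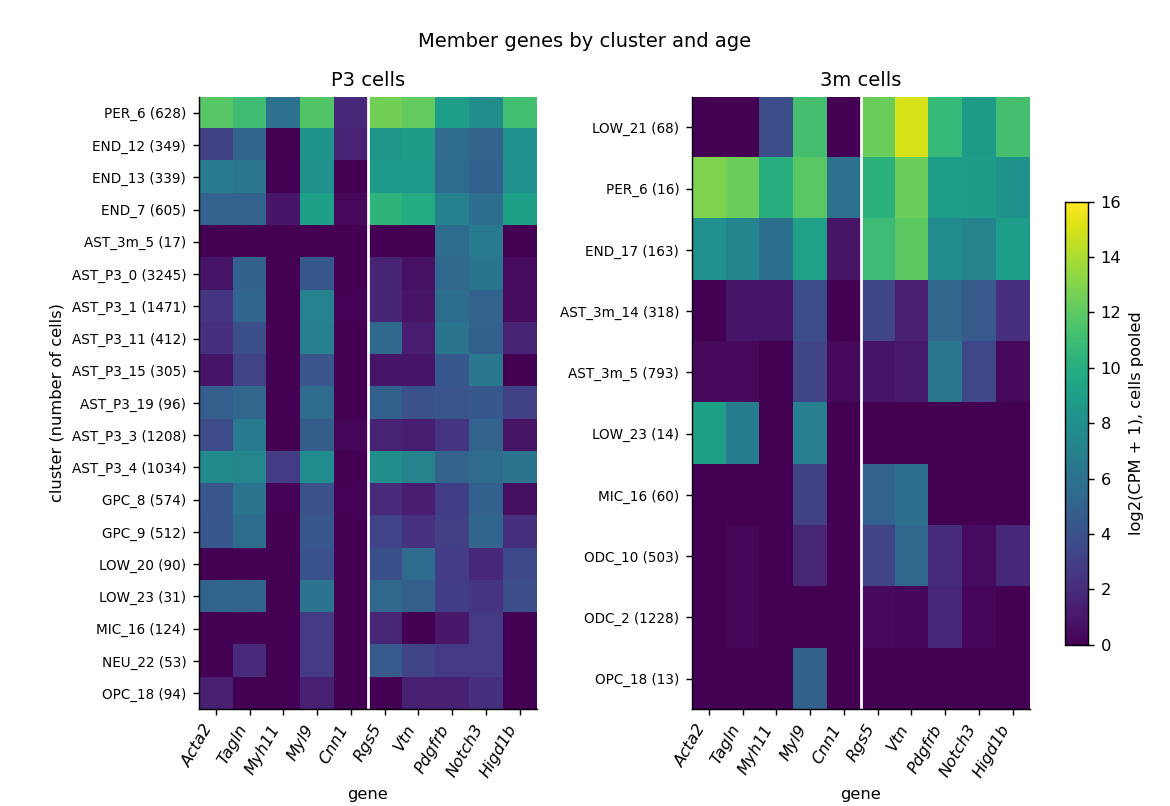
Level of each of the 10 genes (columns) in each cluster with at least 5 cells of the age (rows, with the number of cells). There is a panel for each age, drawn as the colour of log2(CPM + 1) over the pooled cells, brighter where higher. At P3, PER_6 is the brightest row for every gene, and at 3m LOW_21 is bright for the pericyte genes and *Myl9* and at 0 for *Acta2*, *Tagln* and *Cnn1*.

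*Acta2*, *Tagln* and *Myh11* differed widely between the P3 libraries. *Acta2* stood at 1494, 4039 and 6408 CPM in PER_6 of P3 replicates 1, 2 and 3. *Tagln* followed the same order of libraries, at 835, 2873 and 3152 CPM, and *Myh11* was lowest in the same library, at 29.6, 91.3 and 79.4 CPM. *Myl9* varied less, at 2724, 3068 and 3934 CPM. *Cnn1* gave 0, 4 and 7 UMIs in the 3 libraries, too few to order them.

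The pericyte genes did not follow the order of *Acta2* and *Tagln*, except *Notch3*, whose levels lay close together. *Vtn* stood at 4875, 4963 and 3716 CPM, *Higd1b* at 2255, 2529 and 1982, and *Notch3* at 231, 234 and 245. *Rgs5* (7741, 4969 and 4833 CPM) and *Pdgfrb* (622, 426 and 395 CPM) were highest in replicate 1, the library lowest for *Acta2*, *Tagln* and *Myh11*.

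Within PER_6 the contractile genes sat in a minority of cells. After each P3 cell was thinned to 1000 UMIs (625 of 628 cells kept), *Acta2* was found in 29.4% of cells (95% Wilson interval 26.0 to 33.1%) and *Tagln* in 26.7% (23.4 to 30.3%). *Myl9* was found in 89.6% of cells, *Rgs5* in 94.6%, *Vtn* in 96.3% and *Higd1b* in 84.0%. The receptors, which had lower counts, were found in 41.3% (*Pdgfrb*) and 23.8% (*Notch3*), *Myh11* in 2.24% and *Cnn1* in 0.480%. Without thinning, the shares of the genes with lower counts rose most, to 88.4% for *Pdgfrb*, 67.5% for *Notch3* and 14.3% for *Myh11*, against 36.0% for *Acta2* and 37.7% for *Tagln*. *Acta2* was found in 16.8%, 32.1% and 39.2% of thinned cells of P3 replicates 1, 2 and 3, so the libraries differed in how many cells carried it. Microglia, which should lack these genes, gave 0 of 123 thinned P3 cells with a UMI of any of the 10 (median 6223 UMIs before thinning, against 5503.5 in PER_6), which allows a share of up to 2.44%. These intervals and limits cover counting error only.

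*Acta2* was concentrated in few cells and was high there. At full depth 226 of 628 P3 cells held an *Acta2* UMI, 168 held 10 or more, and these 168 gave 98.6% of its UMIs in the cluster, with up to 549 in 1 cell. *Acta2* and *Tagln* largely marked the same cells: of the thinned cells, 146 had both, 38 *Acta2* alone, 21 *Tagln* alone and 420 neither. Over the 596 P3 cells that could be thinned to 2000 UMIs, Spearman's rho was 0.86 between *Acta2* and *Tagln*, 0.52 between *Acta2* and *Myl9* and 0.52 between *Tagln* and *Myl9*. With the pericyte members, rho of *Acta2* over the same cells was below 0. It was -0.27 for *Vtn*, -0.25 for *Rgs5*, -0.30 for *Pdgfrb*, -0.34 for *Higd1b* and -0.04 for *Notch3*. These cells came from 3 libraries of unequal *Acta2* level, and the values are a description.

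Cells with *Acta2* also carried pericyte genes, as nearly all PER_6 cells did at P3. All 226 P3 cells with an *Acta2* UMI held UMIs of both *Vtn* and *Rgs5*, and after thinning 176 of 184 still held *Vtn*. Of all 628 P3 cells of the cluster, 627 held *Vtn* and 620 held *Rgs5*, and 602 of the 625 thinned cells held *Vtn*. Presence of these genes therefore did not set the cells with *Acta2* apart. *Cldn5*, an endothelial tight-junction gene, was present with *Vtn* in 5 of the 625 thinned cells. To place each cell between the groups, the UMIs of *Acta2*, *Tagln*, *Myh11* and *Cnn1* were divided by those UMIs plus the UMIs of the 5 pericyte members (*Myl9* was left out, being in nearly all cells). Of 622 P3 cells with 10 or more such UMIs, 468 were under 20%, 133 between 20 and 80% and 21 over 80%, and 47 lay within 5 points of either bound. The pooled contractile share was 13.0%, 34.8% and 46.3% in P3 replicates 1, 2 and 3. The share is given as a range, and whether the cells divide into types was not tested.

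**Figure D2:**
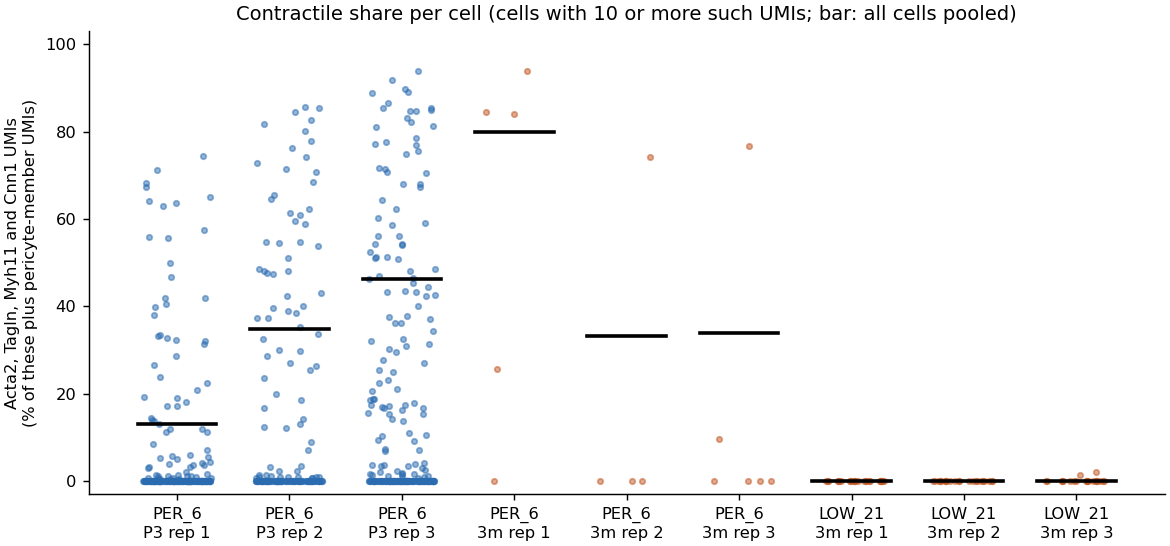
Contractile share of each cell (vertical axis, percent: UMIs of *Acta2*, *Tagln*, *Myh11* and *Cnn1* over those plus UMIs of the 5 pericyte members) by library, for PER_6 and LOW_21 cells with 10 or more such UMIs. Each point is a cell and each bar the share over all cells of the library pooled. P3 PER_6 cells run from 0 to over 80%, and all 68 LOW_21 cells are under 20%.

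PER_6 and LOW_21 were checked against marker lists. PER_6 had UMIs of 15 of 15 pericyte markers (summed level 18317 CPM) and 15 of 15 smooth muscle markers (10695 CPM), with endothelial markers at 277 CPM. Of the 10 genes with the largest fold over other cells, 5 were smooth muscle markers (*Acta2*, *Tagln*, *Actg2*, *Myh11*, *Des*), 2 were fibroblast markers (*Col3a1*, *Dcn*) and none was on the pericyte list, so the cluster's name covers cells with much contractile RNA. LOW_21 had UMIs of 15 of 15 pericyte markers at 52346 CPM in sum and of 10 of 15 smooth muscle markers at 4149 CPM. *Acta2*, *Tagln*, *Cnn1*, *Actg2* and *Myocd* were at 0 there, and 6 of 12 fibroblast markers were at 0. Among the 10 leading genes of LOW_21, *Vtn* was the only marker on any list, and the cluster keeps its number here.

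LOW_21 held pericyte genes without *Acta2* or *Tagln*. In 3m replicates 1, 2 and 3, *Acta2*, *Tagln* and *Cnn1* gave 0 UMIs among 66435, 39449 and 41366, and *Myh11* gave 0, 0 and 2. After thinning, 0 of 67 cells had *Acta2* or *Tagln*, which allows a share of up to 4.48%. The same thinning found *Acta2* in 29.4% of P3 PER_6 cells. *Myl9* was nonetheless present, at 2755, 2332 and 2224 CPM and in 83.6% of thinned cells, so that the myosin light chain was measured in cells in which the actin was not.

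*Vtn* had the highest level of any member in any cluster. It stood at 38850, 29076 and 28115 CPM in LOW_21 of the 3m replicates and was found in all 68 cells, with up to 338 UMIs in a cell. *Rgs5* was also found in all 68 cells, at 6036, 5222 and 4666 CPM. *Pdgfrb* stood at 2168, 1191 and 1281 CPM, *Notch3* at 452, 532 and 242, and *Higd1b* at 2740, 2611 and 2127. In the 16 PER_6 cells of the same libraries *Vtn* was at 2312, 8389 and 7368 CPM and *Rgs5* at 2223, 414 and 426 CPM, below LOW_21 in every library. *Notch3* in those PER_6 cells (578, 207 and 365 CPM) overlapped LOW_21. Microglia of the 3m libraries had *Vtn* in 3 of 60 thinned cells (5.0%, median 3939.5 UMIs before thinning, against 1947.5 in LOW_21), and *Rgs5* in 1 of 60. The part of free RNA in these levels was not tested.

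The 16 PER_6 cells at 3m were mixed. *Acta2* stood at 13963, 1864 and 2192 CPM in 3m replicates 1, 2 and 3, and 314 of its 368 UMIs were in replicate 1, which was thus far above the other two. *Myh11* stood at 2001, 0 and 548 CPM. At full depth, 6 of the 16 cells had *Acta2*, and all 6 also had *Vtn* and *Rgs5*, while the other 10 had neither *Acta2* nor *Rgs5*. In 7 of the 16 cells fibroblast-marker UMIs outnumbered member UMIs, against 4 of 628 P3 cells and 0 of 68 LOW_21 cells. Summed fibroblast markers in these PER_6 cells were 4002, 9217 and 11265 CPM, against 1176 to 2149 CPM in PER_6 at P3, and their part in the results was not tested.

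**Figure D3:**
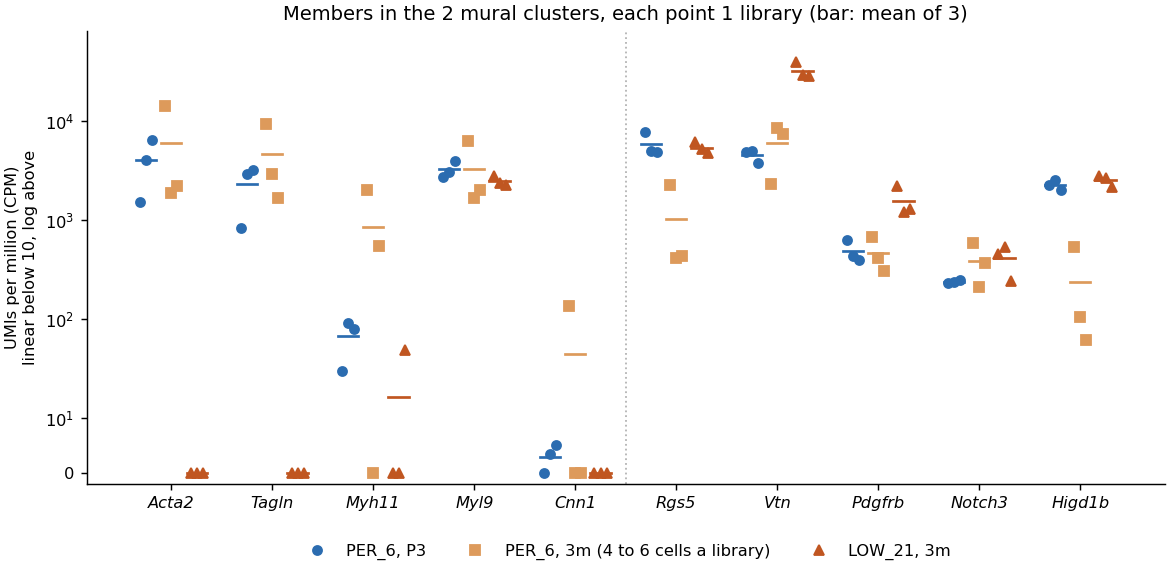
CPM of the 10 genes (vertical axis, linear below 10 and logarithmic above) in PER_6 at P3, PER_6 at 3m and LOW_21 at 3m, with 1 point per library and a bar at the mean of 3. LOW_21 points lie at 0 for *Acta2*, *Tagln* and *Cnn1* and above every PER_6 point for *Vtn*.

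The next question was whether the members changed between P3 and 3m. UMIs were summed per library and fitted with edgeR's quasi-likelihood test, and calls needed an adjusted p no higher than 0.05 and a log2 fold change of 1 or more in size. Here p-values measure the spread between 3 libraries of pooled mice an age. Over all barcodes, 6 of the 9 members tested were lower at 3m and 1 was higher, whereas 16.1% of 15407 genes were called lower and 18.4% higher. The median log2 fold change was -1.59 over the members and 0.00 over all genes.

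Over all barcodes, the contractile genes *Acta2*, *Tagln* and *Myl9* fell while *Myh11* rose. *Myl9* stood at 277, 199 and 311 CPM at P3 and 76.9, 43.3 and 68.4 at 3m (log2 fold change -1.86, SE 0.23, edgeR adjusted p = 0.000174). *Acta2* stood at 90.6, 131 and 278 CPM at P3 and at 84.2, 21 and 12.3 at 3m (-1.86, SE 0.66, edgeR adjusted p = 0.0369). Its 3m replicate 1 came close to the lowest P3 library, and the call was lost without either P3 replicate 2 (adjusted p = 0.0553) or replicate 3 (0.137) and without 3m replicate 2 (0.0901) or 3 (0.0914). *Tagln* was lower in each 3m library (-2.14, SE 0.57, edgeR adjusted p = 0.0110). *Myh11* rose from 1.99, 2.83 and 3.51 CPM to 13.7, 5.32 and 4.2 CPM (1.70, SE 0.44, edgeR adjusted p = 0.00935). Its call held in 12 of 14 alternatives. It was lost without 3m replicate 1 (log2 fold change 0.94) and over the barcodes past the cell filter alone.

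Of the pericyte genes, 3 fell over all barcodes and 2 were not called. *Rgs5* stood at 865, 293 and 389 CPM at P3 and 176, 104 and 162 at 3m, with no overlap (-1.59, SE 0.37, edgeR adjusted p = 0.00602). *Higd1b* (-1.98, SE 0.22, edgeR adjusted p = 9.2e-05) and *Notch3* (-1.57, SE 0.15, edgeR adjusted p = 3.22e-05) were also lower in every 3m library. *Vtn* overlapped, at 486, 283 and 319 CPM at P3 and 478, 316 and 575 at 3m (0.54, SE 0.26, edgeR adjusted p = 0.107). *Pdgfrb* overlapped too (-0.23, SE 0.28, edgeR adjusted p = 0.511). These sums move with the number of mural cells captured. It was 220, 170 and 238 at P3, all in PER_6, and 31, 26 and 27 in PER_6 and LOW_21 at 3m. In these sums fewer cells of a type cannot be told apart from less RNA per cell. Over filtered cells outside both clusters, *Tagln*, *Myl9*, *Notch3* and *Higd1b* were still lower in every 3m library, while *Acta2* and *Rgs5* overlapped. *Notch3* had mean levels of 49.9 CPM at P3 and 13.6 CPM at 3m there. Barcodes that failed the filter gave 28.9% of the *Acta2* UMIs, 32.7% of *Tagln* and 36.6% of *Myh11* at 3m, and at most 0.366% of each of these at P3.

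Within the mural clusters the pattern turned for *Vtn* and *Pdgfrb*. UMIs of PER_6 and LOW_21 were summed per library, which gave 1139408 to 1821789 UMIs at P3 and 49105 to 88923 at 3m. Of the 9 members tested, 3 were called higher and 1 lower, against 6.08% higher and 8.67% lower of 7224 genes. The median log2 fold change was -0.35 over the members and -0.13 over all genes. All P3 cells were PER_6 and most 3m cells LOW_21, so age and cluster cannot be told apart in this comparison. Clusters were formed on these same genes, so its p-values are no separate support for a difference in them.

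*Vtn* stood at 4875, 4963 and 3716 CPM in the P3 sums and 29610, 25008 and 22219 in the 3m sums (log2 fold change 2.37, SE 0.36, edgeR adjusted p = 2.39e-05). The groups were far apart. In PER_6 cells alone the log2 fold change of *Vtn* was -0.27 (edgeR adjusted p = 0.739), so the higher level at 3m was carried by LOW_21. *Pdgfrb* (chr18:61045150-61085061, plus strand) stood at 622, 426 and 395 CPM at P3 and 1788, 1039 and 1004 at 3m (1.31, SE 0.28, edgeR adjusted p = 0.00138), was -0.54 in PER_6 alone and was not called without 3m replicate 1 (0.80, edgeR adjusted p = 0.0709). *Notch3* was higher in each 3m library, at 484, 468 and 277 CPM against 231, 234 and 245, yet did not pass (0.68, SE 0.26, edgeR adjusted p = 0.0762).

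*Rgs5* and *Higd1b* did not pass in the mural sums. *Rgs5* stood at 5072, 4277 and 3461 CPM at 3m (-0.57, SE 0.31, edgeR adjusted p = 0.238) and *Higd1b* at 2182, 2118 and 1540 (-0.35, SE 0.28, edgeR adjusted p = 0.460). In PER_6 alone both were called lower at 3m, by -2.89 for *Rgs5* and -3.58 for *Higd1b* on the log2 scale, in the 16 cells described above. Their 3m values in the whole mural sum therefore came mainly from LOW_21.

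The contractile genes of the mural sums turned on single libraries. *Acta2* stood at 3531, 367 and 623 CPM at 3m against 1494, 4039 and 6408 at P3, and the groups overlapped through 3m replicate 1 (-1.46, SE 0.51, edgeR adjusted p = 0.0493). The call was lost in the same direction in 8 of 15 alternatives, among them DESeq2 (adjusted p = 0.374) and the fits without P3 replicate 2 (0.285), P3 replicate 3 (0.440), 3m replicate 2 (0.155) or 3m replicate 3 (0.0939), in PER_6 alone the log2 fold change was 0.16, and without 3m replicate 1 it was -3.29. *Tagln*, at 2317, 570 and 467 CPM at 3m, was not called with all libraries (-1.11, SE 0.45, edgeR adjusted p = 0.0923) but was without 3m replicate 1 (-2.45) or P3 replicate 1 (-1.23). *Myh11* gave 506, 0 and 190 CPM at 3m against 29.6, 91.3 and 79.4 (1.89, SE 0.50, edgeR adjusted p = 0.00924), with 45 of its 56 UMIs in 3m replicate 1, and without that library the log2 fold change was 0.34. *Myl9* stood at 3621, 2199 and 2163 CPM and did not pass (-0.40, SE 0.30, edgeR adjusted p = 0.427). *Cnn1*, with 14 UMIs in all, was not tested.

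Marker genes of other cells moved in the same sums. The 12 fibroblast markers summed to 1176 to 2149 CPM at P3 and 1574 to 3513 at 3m, the 7 oligodendrocyte markers to 0.878 to 4.94 and 104 to 1068 CPM, and the 11 endothelial markers to 190 to 378 and 311 to 562 CPM. Their part in the members' changes was not tested. Without the cells in which fibroblast UMIs outnumbered member UMIs, *Vtn*, *Pdgfrb* and *Myh11* kept their calls and *Acta2* lost its call (edgeR adjusted p = 0.0909). That choice used the members' own UMIs and took out 7 PER_6 cells at 3m and 4 at P3, so the kept calls are no separate support.

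**Figure D4:**
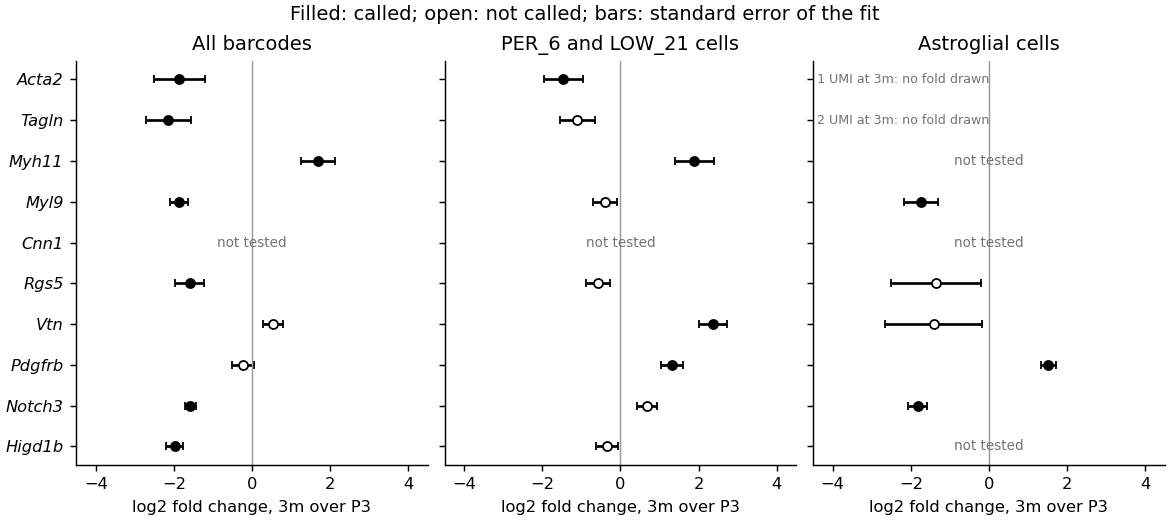
Log2 fold change of each gene, 3m over P3 (horizontal axis, points with SE bars), in all barcodes, in PER_6 plus LOW_21 and in astroglial cells; filled points were called. *Vtn* lies at 0.54, 2.37 and -1.41 in the 3 sums and *Notch3* at -1.57, 0.68 and -1.82. No fold is drawn for astroglial *Acta2* and *Tagln*, which had 1 and 2 UMIs at 3m.

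Other smooth muscle and pericyte markers mostly did not pass in the mural sums, where 6.08% of all genes tested were called higher and 8.67% lower. Of the 9 smooth muscle markers tested beside the members, 0 rose and 1 fell, *Actg2* (an enteric smooth muscle actin), which had 220 UMIs at P3 and 0 at 3m, a level at least 3.31-fold lower against a floor of 3 UMIs over the 3m libraries. Of 10 further pericyte markers, 1 rose, *Atp13a5* (a transport ATPase), and 0 fell. *Atp13a5* stood at 304, 218 and 299 CPM at P3 and 855, 1018 and 969 at 3m (1.66, SE 0.24, edgeR adjusted p = 1.42e-05), higher in every 3m library, as *Vtn* and *Pdgfrb* were.

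Among 17 relatives of the members tested, 3 rose and 7 fell in the mural sums, against 6.08% higher and 8.67% lower of all genes tested. The cytoplasmic actins *Actg1* (log2 fold change -2.25) and *Actb* (-1.13) fell, as did *Tagln2* (-1.01), *Cnn2* (-1.57) and *Myl12a* (-1.04), the broadly expressed relatives of *Tagln*, *Cnn1* and *Myl9*. The nonmuscle myosin *Myh10* had 267 UMIs at P3 and 0 at 3m, at least 4.02-fold lower. *Rgs4* (1.73) and *Notch2* (1.51) rose, and *Pdgfra*, the other PDGF receptor, went from 4 to 39 UMIs. *Pdgfra* is on the fibroblast list as well, and was at 0 in LOW_21.

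Some PDGF and Notch ligands were higher in endothelial cells and others in mural cells. *Pdgfb*, the ligand of *Pdgfrb*, stood at 165 CPM in END_7 and 271 CPM in END_17, the main endothelial clusters of P3 and 3m, and at 12.1 and 13.6 CPM in PER_6 and LOW_21. *Dll4*, a Notch ligand, stood at 81.2 and 49.3 CPM in END_7 and END_17 and at 3.88 and 0 CPM in PER_6 and LOW_21. Another Notch ligand, *Jag1*, was higher in the mural clusters, at 110 and 81.5 CPM in PER_6 and LOW_21 against 65.0 and 56.5 CPM in END_7 and END_17. The PDGF ligand *Pdgfa* differed by cluster pair. It stood at 175 CPM in PER_6 against 12.7 CPM in END_7, but at 40.7 CPM in LOW_21 against 75.1 CPM in END_17. Notch targets differed among themselves. *Heyl* was at 168 and 292 CPM in PER_6 and LOW_21 and at 35.6 and 45.2 CPM in the endothelial clusters, and *Hey2* was likewise higher in the mural clusters (55.7 and 122 CPM against 9.24 and 14.5 CPM). *Hey1* went the other way, at 14.8 and 0 CPM in PER_6 and LOW_21 and 42.0 and 72.7 CPM in END_7 and END_17. *Hes1* followed neither pattern, at 417 and 475 CPM in PER_6 and LOW_21, 550 CPM in END_7 and 288 CPM in END_17. Of 17 partners tested in the mural sums (PDGF, Notch, TGF-beta, angiopoietin, integrin and serum response factor genes), 1 rose (*Tgfbr1*, log2 fold change 2.40) and 2 fell (*Pdgfa*, -1.49, and *Tgfb1*, -1.68). These counts lay near the shares of all genes tested there, 6.08% higher and 8.67% lower.

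Much of the pericyte-gene RNA lay in cells the study named endothelial. At P3, PER_6 gave 50.3% of the *Rgs5* UMIs of filtered cells and END_7 47.4%, and the split was alike for *Vtn* (52.4% and 45.3%) and *Higd1b* (47.4% and 49.96%). *Acta2* differed, with 91.1% in PER_6. At 3m, LOW_21 gave 23.7% of *Rgs5*, 47.6% of *Vtn* and 37.9% of *Higd1b*, and END_17 gave 72.2%, 47.8% and 58.8%. END_7 stood well below PER_6 when scaled to its own UMIs, at 1337 against 6091 CPM for *Rgs5* and 912 against 4531 CPM for *Vtn*. The endothelial clusters also held red blood cell RNA. Erythroid markers summed to 17685 CPM in END_7 and 30182 in END_17, above the endothelial markers there (6605 and 15122 CPM). In PER_6 and LOW_21 they summed to 5.48 and 0 CPM.

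In END_7 the pericyte genes came together. Of its 605 cells, 548 held *Vtn*, and these had a median of 28317.5 UMIs against 11991 in the 57 without. They had *Cldn5* at 2878 CPM, against 3241 CPM in the cells without *Vtn*, so both groups carried endothelial RNA. For each 100 *Vtn* UMIs, END_7 held 147 of *Rgs5*, 60.4 of *Higd1b*, 14.5 of *Pdgfrb* and 6.04 of *Notch3*, close to the 134, 49.5, 11.0 and 5.22 of P3 PER_6. *Acta2* did not keep the ratio, at 3.52 in END_7 against 82.1 in PER_6. Whether these barcodes held an endothelial and a mural cell together was not tested.

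END_17 was similar at 3m, with *Vtn* in 84 of 163 cells, which had a median of 8780 UMIs against 4100 in those without. For each 100 *Vtn* UMIs it held 49.7 of *Rgs5* and 11.8 of *Higd1b*, against 16.4 and 7.63 in LOW_21, so this pair did not share its ratios. *Acta2* was in 14 END_17 cells, 211 of its 323 UMIs in 1 cell. By library END_17 held 277, 15 and 31 *Acta2* UMIs, again mostly in 3m replicate 1.

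Astroglial cells, the population the beads were meant to enrich, carried lower levels of several members. There were 8874 such cells at P3 and 1118 at 3m. Of the 7 members tested, 1 rose and 4 fell between P3 and 3m, against 15.8% of 13530 genes called higher and 16.3% lower. The median log2 fold change was -1.74 over the 7 and -0.04 over all genes tested.

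*Pdgfrb* and *Notch3*, both receptors, moved in opposite directions in astroglial cells. *Pdgfrb* rose from 36.6, 25.4 and 25.5 CPM to 89.0, 62.9 and 69.9 CPM (log2 fold change 1.52, SE 0.19, edgeR adjusted p = 2.94e-05). *Notch3* fell from 59.7, 44.6 and 48.5 CPM to 9.50, 17.4 and 9.51 CPM (-1.82, SE 0.24, edgeR adjusted p = 4.33e-05). Neither pair of ages overlapped. At P3, 63.8% of all *Notch3* UMIs of filtered cells were in astroglial cells outside the shallow cluster AST_P3_4, which gave a further 1.13%, against 17.1% in PER_6. By cluster, and leaving out the 17 P3 cells of AST_3m_5 (98.5 CPM from 4 UMIs), *Notch3* was highest in AST_P3_15 (83.5 CPM) and AST_P3_0 (73.6 CPM), and *Pdgfrb* in AST_3m_5 (83.8 CPM) and AST_P3_11 (71.9 CPM), while the progenitor clusters GPC_8 and GPC_9 had *Pdgfrb* at 6.91 and 7.21 CPM. The ratio to *Rgs5* was unlike that of mural cells: 2.88 *Rgs5* UMIs per 100 *Notch3* UMIs in AST_P3_0, against 2576 in P3 PER_6.

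*Tagln* was found in P3 astroglial cells and hardly at 3m. It stood at 40.2, 50.9 and 61.3 CPM at P3 (3962 UMIs) and gave 0, 1 and 1 UMIs at 3m, a pooled P3 to 3m ratio of 114 with an exact 95% interval of 31.6 to 944 that covers counting error only, and was called (edgeR adjusted p = 1.33e-07). *Acta2* was lower, at 5.73, 7.48 and 21.4 CPM at P3 (884 UMIs), with 1 UMI at 3m, a ratio of 51.0 (9.13 to 2017), and was called (edgeR adjusted p = 0.00188). *Tagln* was at 97.9 CPM in AST_P3_3 and 70.8 CPM in GPC_8. In AST_P3_3 there were 12 *Acta2* UMIs for each 100 of *Tagln*, against 177 in P3 PER_6, so astroglial *Tagln* did not keep the mural ratio. The order of the P3 libraries for astroglial *Acta2* was that of PER_6, and the part of this in the result was not tested.

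*Myl9* fell in astroglial cells, from 19.5, 42.8 and 59.2 CPM to 16.4, 10.8 and 5.43 CPM (-1.74, SE 0.43, edgeR adjusted p = 0.00479), with only a narrow gap between P3 replicate 1 and 3m replicate 1. It was highest in AST_P3_1 (135 CPM) and AST_P3_11 (123 CPM) outside AST_P3_4. *Rgs5* (-1.36, SE 1.16, edgeR adjusted p = 0.355) and *Vtn* (-1.41, SE 1.24, edgeR adjusted p = 0.370) did not pass. Cluster AST_P3_4, of 1034 P3 cells with a median of 1019 UMIs, 983 of them in P3 replicate 3, stood apart with 193 CPM of *Acta2*, 244 of *Rgs5* and 142 of *Vtn*, and 123 *Acta2* UMIs per 100 of *Tagln*. Without it the 5 calls in astroglial cells stayed, *Rgs5* was at -0.34 and *Vtn* at 0.02 on the log2 scale.

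**Figure D5:**
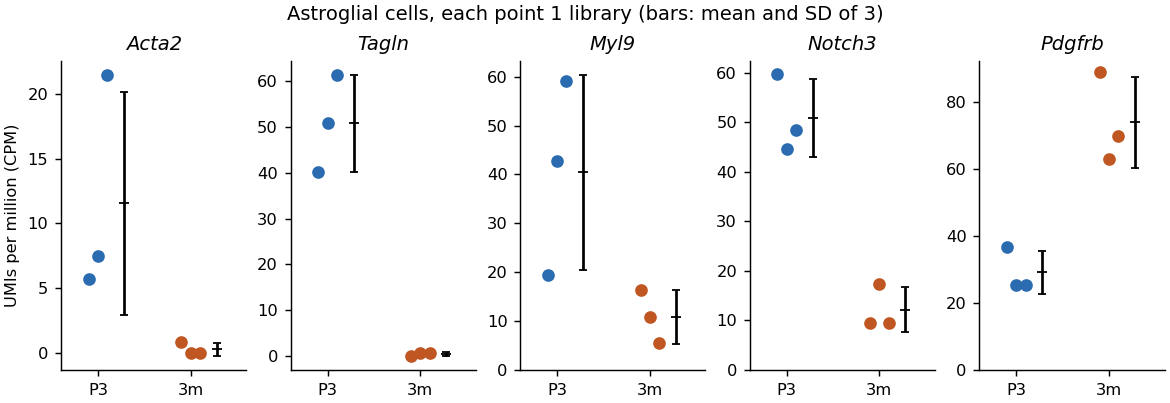
CPM of *Tagln*, *Acta2*, *Myl9*, *Pdgfrb* and *Notch3* (vertical axes) in astroglial cells at P3 and 3m, 1 point per library, with bars for the mean and SD of 3. *Pdgfrb* is higher in all 3m libraries and the other 4 genes are lower in all of them.

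Finally, genes with the most similar profile over the 24 clusters were ranked by Pearson correlation of log2(CPM + 1), among 13112 genes with at least 200 UMIs. The mean contractile profile was closest to *Map3k7cl* (0.89), *Col4a1* (0.87), *Uaca* (0.86) and *Ehd2* (0.83). The mean pericyte profile was matched more closely, by *Itga1* (0.98), *Abcc9* (0.97), *Tbxa2r* (0.97) and *Kcnj8* (0.97). *Abcc9* and *Kcnj8* encode the subunits of the potassium channel of brain pericytes and are on the pericyte list used here. *Kcnj8* stood at 773 CPM in PER_6 and 1684 CPM in LOW_21, and *Abcc9* at 410 and 998 CPM. The contractile list was less steady, with 2 of its 6 leading genes kept when 10 in place of 1 was added before the log, against 5 of 6 for the pericyte list. The points are clusters that share libraries, and the values are a description.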

How the data were processed

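Single-cell RNA-seq of 6 libraries (3 at P3 and 3 at 3m) was analysed from the deposited table of raw UMI counts, in which the authors gave counts per gene and barcode without normalisation, barcodes that failed their filter included. Per the labels and methods, reads were aligned to mm10 with Cell Ranger and clustered with Seurat (3.1.1 in the processing notes) at resolution 0.6. The deposited annotation gave each cell's cluster. The methods name no doublet caller, and no doublets were removed here. The members and gene lists were chosen with earlier results of these data known.

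UMIs were summed per library over all barcodes, over PER_6 and LOW_21, and over the astroglial cells. Sums were fitted with edgeR 4.0.16 (limma 3.58.1, R 4.3.3): TMM scaling, the default low-count filter, the quasi-likelihood test with age as the only term, and Benjamini-Hochberg adjustment over all genes tested. Fits were tested on simulated counts first. DESeq2 1.42.0, other scalings and filters, thinned counts and left-out libraries were alternatives. Shares of cells used thinning to 1000 UMIs, with 2000 as an alternative, leaving out shallower cells. Of other genes, the text names up to 4 per marker list by UMIs in PER_6 plus LOW_21, relatives and signalling partners of the members, the 10 leading genes of both clusters and the 6 most alike genes. *Cldn5* and the endothelial split were chosen after the values were seen. Library depth, 5471573 to 37795021 UMIs, and the 16 adult PER_6 cells set the precision.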

Additional observations from a re-analysis of the deposited data

How the results depend on the processing

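The count of genes called was 5319 over all barcodes, 1065 in the mural sums and 4344 in astroglial cells. It ranged from 4700 to 5587, 419 to 940 and 3234 to 4257 when 1 library was left out, and was 211 (mural) and 2738 (astroglial) when sums were thinned to the smallest library. With library totals in place of TMM, the median of all genes moved from 0.00 to -0.19, from -0.13 to -0.01 and from -0.04 to -0.24, and the share of higher calls from 53.3 to 43.6%, 41.2 to 51.4% and 49.3 to 38.6%. In the mural sums it was 50.8% with DESeq2, 26.2% with no filter and 66.8% when thinned. Same-numbered libraries did not deviate together in every pair (correlations of 0.48, 0.44 and -0.00 over all barcodes, 0.09, 0.03 and 0.03 in the mural sums, and 0.21, 0.10 and 0.04 in astroglial cells), so the numbers were not taken as pairs. With the replicate block the counts were 5483, 991 and 4420, and no member's call changed.

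Directions turned in these fits, and the cause was not tested. Over all barcodes, *Acta2* was at 0.74 without PER_6 and LOW_21 (filtered cells) and *Pdgfrb* ranged from -0.49 to 0.10 with 1 library left out. In the mural sums, PER_6 alone gave 0.16 for *Acta2*, 0.51 for *Tagln*, -0.27 for *Vtn* and -0.54 for *Pdgfrb*. Thinned sums gave 0.075 for *Myl9* and 0.083 for *Higd1b*. With 1 library left out, *Myl9* ranged from -0.86 to 0.0025 and *Higd1b* from -0.60 to 0.028. In astroglial cells *Vtn* was at 0.023 without AST_P3_4, an alternative added after seeing the data, as was leaving out fibroblast-rich cells.

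Calls of *Tagln*, *Myl9*, *Notch3* and *Higd1b* over all barcodes held in the 14 alternatives run. That of *Rgs5* held in 13 of them and was lost in filtered cells without PER_6 and LOW_21 (-0.68, edgeR adjusted p = 0.201). Mural *Myh11* was lost with DESeq2 (adjusted p = 0.490), and *Tagln* was called with no filter, with stricter cells (-2.64) and without either replicate 1. Thinned *Notch3* was called (1.09). With no filter on low counts, astroglial *Rgs5* (-1.47) and *Vtn* (-1.53) were called. Of 30 shares of cells, 13 moved beyond their interval at 2000 UMIs and 15 unthinned. The most alike genes shared 2 (log2(CPM + 10)) and 1 (Spearman) of 6 with the contractile list, and 2 with the pericyte list by Spearman. The 49105 to 88923 UMIs of the adult mural sums limited what could be tested there.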

Other observations

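Contractile RNA also occurred outside the mural and endothelial clusters. In LOW_23, a small cluster the study left unidentified, the 14 cells of 3m replicate 2 held 92 *Acta2* UMIs (554 CPM) in 10 cells, 18 of *Tagln* and 19 of *Myl9*, and 0 of *Myh11*, *Cnn1* and all 5 pericyte members. They gave 11.7% of the *Acta2* UMIs of filtered 3m cells, against 46.9% from PER_6 and 41.2% from END_17. The 31 P3 cells of LOW_23 were at 34.1 CPM of *Acta2*, and they held 18 *Rgs5* and 12 *Vtn* UMIs.

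*Vtn* UMIs in the oligodendrocyte clusters came almost all from 1 library and from few cells. In these clusters at 3m it gave 199, 0 and 1 UMIs in replicates 1, 2 and 3 over 474, 735 and 522 cells, while *Acta2* gave 0 in each and *Tagln* gave 1, 1 and 0. After thinning, *Vtn* was found in 1 of 503 ODC_10 cells and 0 of 1223 ODC_2 cells. ODC_10 held 199 *Vtn* UMIs, and with them 45 of *Rgs5*, 16 of *Pdgfrb*, 13 of *Higd1b* and 12 of *Myl9*. The source of this RNA was not tested.

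*Sebox*, among the 10 leading genes of LOW_21, lies on the same strand as *Vtn*, 1123 bases past its end, at chr11:78503447-78505081. It gave 4.5 UMIs per 1000 *Vtn* UMIs in LOW_21 and 4.49 in END_17 at 3m, and 1.22 in PER_6 and 0.943 in END_7 at P3, from 22, 22, 24 and 16 UMIs.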
